A study of Mus musculus with 18 samples.

Results

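The Hox cluster genes encode homeodomain transcription factors, and they were followed here from mouse embryonic stem (ES) cells to germ cells. The members were all probes whose gene name was Hox with a cluster letter a, b, c or d and a number from 1 to 13. They came to 49 of the 41174 probes on the array and stood for 38 of the 27888 gene names in the files, 11 of them with 2 probes. Cluster a had 14 probes, cluster b 14, cluster c 9 and cluster d 12. By number, 11 probes were anterior (1 to 3), 18 central (4 to 8) and 20 posterior (9 to 13).

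Hox genes lie in clusters on separate chromosomes, in an order that matches the stretch of the body axis in which each is used, so that genes with low numbers act in the head and neck and genes with high numbers act in the lumbar and tail regions, the limbs and the genital tract. Genes with the same number in different clusters are paralogues that arose by duplication of an ancestral cluster. In ES cells the clusters are held silent by Polycomb proteins, and retinoic acid, Wnt signals and the Cdx factors open them during differentiation. Repression of somatic genes, Hox genes among them, is a known trait of early primordial germ cells (PGCs), from which sperm and eggs descend.

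RNA from 18 samples, all of mixed C57BL/6 and 129SV strain and labelled male, was measured on one-colour Agilent arrays, 2 in each of 9 groups. A line with a GFP reporter for Stella (the protein of Dppa3, on a bacterial artificial chromosome) and a line with a GFP reporter for Dazl, which germ cells use to control translation, were each grown undifferentiated in medium with Lif on feeder fibroblasts of mouse embryos and sorted into GFP-negative and GFP-positive ES cells. GFP-positive cells were also sorted from cultures on gelatin, made after the feeders were depleted, from the Stella-GFP line at day 7 and from the Dazl-GFP line at day 12 and day 16; the labels call these in vitro PGCs. Dazl-GFP-positive germ cells came from embryonic gonads (E13.5) and from the testis at 7 to 11 days after birth (juvenile testis). Nothing in the labels ties a replicate to its own culture or animal, and p-values therefore cover the spread among these arrays alone, which may be technical. The level of a probe is the log2 ratio of its signal to the 75th percentile of that array, and levels of different probes are not compared, because probes differ in brightness.

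The 75th percentile ranged from 103 to 474 signal units, 50.6% to 68.9% of spots were well above background by the extraction software's flag, and no spot was saturated. Dazl had levels of -3.29 and -3.42 in GFP-negative and 0.79 and 0.73 in GFP-positive ES cells of its line, and Dppa3 had 2.60 and 2.63 against 5.15 and 5.34 in the Stella-GFP line. The germ cell marker Ddx4 had its highest levels at E13.5 (5.59 and 4.98) and in juvenile testis (4.47 and 4.89). The array labelled E13.5 replicate 1 stood apart: Ddx3y (-7.45) and Eif2s3y (-7.29), both on the Y chromosome, missed the background flag here and passed it on the other 17 arrays. On E13.5 replicate 2 they were at -1.36 and 3.17. The missing signal is at odds with the male label of replicate 1, and its reason was not tested. Replicate arrays correlated least at E13.5 (Pearson's r = 0.943 across probes), so results on E13.5 are given with and without that array. The main E13.5 differences, errors and calls combine both arrays in spite of this. Fibroblast markers, a list of 20 genes, had summed levels of 8.22 and 8.21 in Dazl-GFP-positive and 7.16 and 7.13 in Dazl-GFP-negative ES cells. They were 5.74 to 6.44 in Stella-GFP ES cells, 4.92 to 5.46 in the differentiated groups and 4.05 to 4.90 in germ cells from the animal. Fewer cells of a type and less RNA per cell cannot be told apart in such bulk samples.

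The stretches before the start sites of 4 genes are shown because 3 of them, Hoxd13, Hoxd10 and Hoxa11, had their highest signals in the same group, and the last, Hoxd9, the neighbour of Hoxd10 in cluster d, had its highest signals in others. Each is 250 bases from RefSeq (GRCm38.p6), 5′ to 3′ on the gene's strand, and the capitals mark every CG. Hoxd13 lies on the plus strand at chr2:74667975-74668224, Hoxd10 on the plus strand at chr2:74691641-74691890, Hoxa11 on the minus strand at chr6:52245811-52246060 and Hoxd9 on the plus strand at chr2:74697513-74697762.
Hoxd13: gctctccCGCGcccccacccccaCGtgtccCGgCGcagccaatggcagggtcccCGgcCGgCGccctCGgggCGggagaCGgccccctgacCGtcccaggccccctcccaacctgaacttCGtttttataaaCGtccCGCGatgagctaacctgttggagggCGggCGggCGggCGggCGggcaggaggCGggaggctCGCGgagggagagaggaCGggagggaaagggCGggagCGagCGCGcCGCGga
Hoxd10: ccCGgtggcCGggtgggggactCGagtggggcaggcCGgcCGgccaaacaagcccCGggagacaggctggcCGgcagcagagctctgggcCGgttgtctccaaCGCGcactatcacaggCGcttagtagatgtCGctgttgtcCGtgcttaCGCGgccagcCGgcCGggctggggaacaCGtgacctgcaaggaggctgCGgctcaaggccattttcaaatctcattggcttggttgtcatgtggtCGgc
Hoxa11: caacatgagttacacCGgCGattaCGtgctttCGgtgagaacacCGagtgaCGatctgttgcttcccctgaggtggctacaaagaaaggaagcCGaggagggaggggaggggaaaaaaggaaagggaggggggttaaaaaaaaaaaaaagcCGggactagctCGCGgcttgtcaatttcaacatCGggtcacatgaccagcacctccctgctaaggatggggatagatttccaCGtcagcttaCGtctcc
Hoxd9: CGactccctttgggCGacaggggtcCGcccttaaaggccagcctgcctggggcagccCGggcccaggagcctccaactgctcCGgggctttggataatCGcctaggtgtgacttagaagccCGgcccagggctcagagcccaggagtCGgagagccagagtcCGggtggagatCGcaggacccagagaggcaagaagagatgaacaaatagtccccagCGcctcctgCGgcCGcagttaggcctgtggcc

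The Hoxd13 stretch held 31 CG and was 74.4% G or C, that of Hoxd10 held 20 (65.6%), that of Hoxa11 13 (52%) and that of Hoxd9 13 (65.2%). The RefSeq table gave 24 such stretches for 22 of the Hox genes, with a median of 12.5 CG, against 6 over the 32851 stretches of all genes. Letters known from the Cdx consensus (TTTATG) stood in 20.8% of the Hox stretches and 10.8% of all, on either strand. Those of joint Pbx and Hox binding (TGATNNAT) stood in 16.7% and 7.68%, and the nuclear receptor half-site AGGTCA, which retinoic acid receptors bind, in 25% and 14.0%. The Hox shares rest on 5, 4 and 6 of the 24 stretches, and their differences from all stretches were not tested. None of the 3 motifs contains another. Of the 4 stretches shown, that of Hoxd10 held AGGTCA and the others held none of the 3 motifs.

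**Figure D1:**
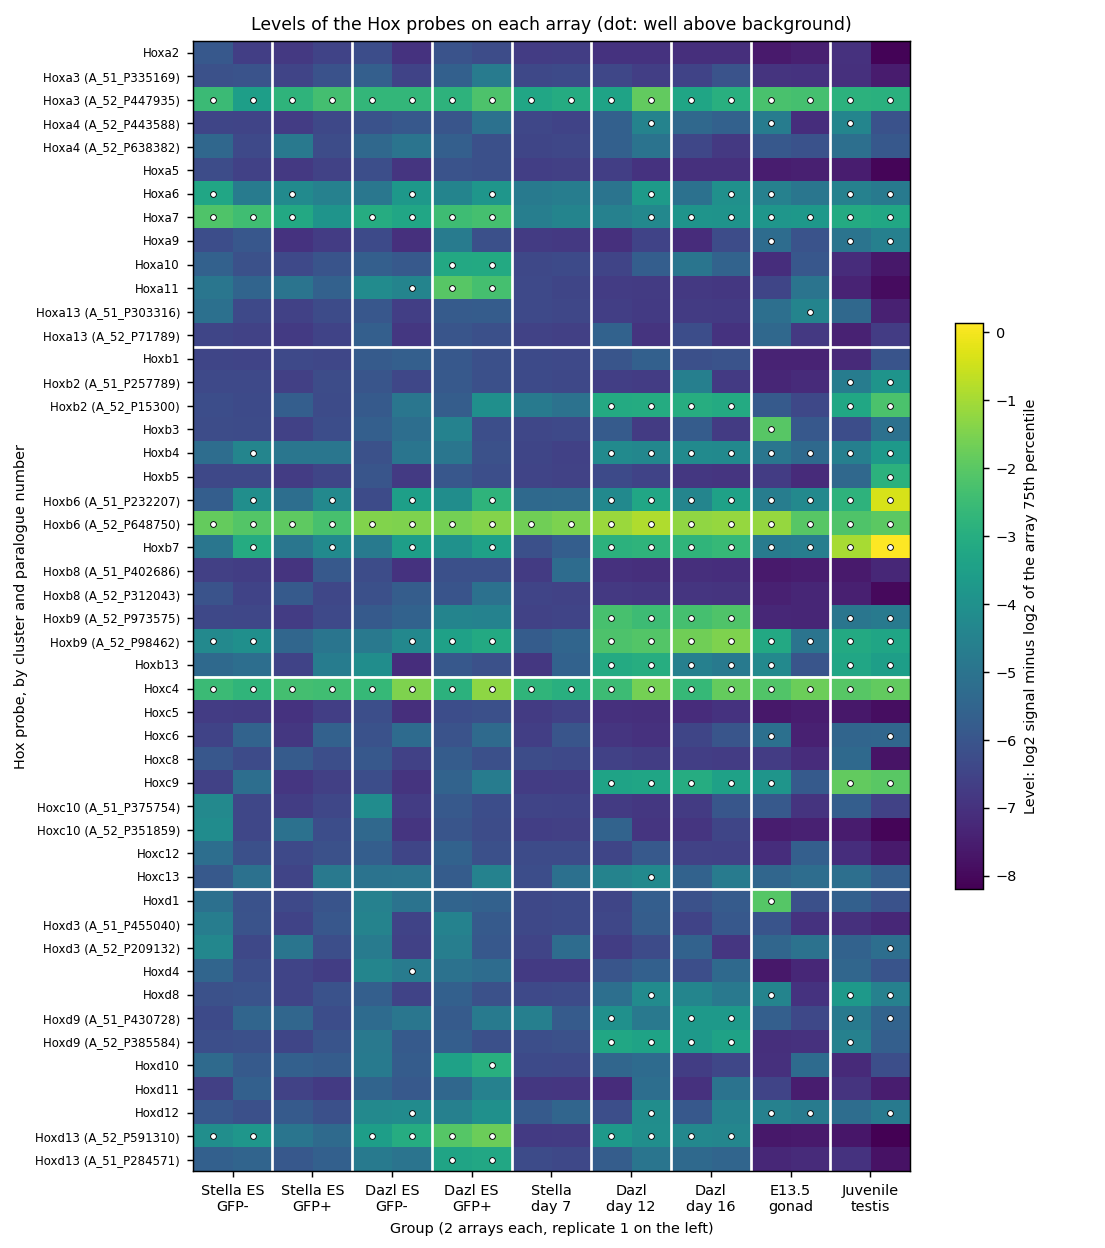
Level of 48 of the 49 Hox probes (rows, by cluster and number) on each of the 18 arrays (columns, 2 per group); the colour is the level (log2), and a white dot marks a probe well above background. Colours are to be read along a row; Hoxa3 (A_52_P447935), Hoxb6 (A_52_P648750) and Hoxc4 have a dot on all 18 arrays, and 15 probes have none.

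Most Hox probes were dim. Of the 49, 24 (19 genes) passed that flag in 1 or more whole groups, on both arrays, and could be tested, 10 were so on some array but not on both arrays of any group, and 15 on no array. Those 15 included both probes of Hoxb8, a gene of the cervical and thoracic axis, and of Hoxc10, a lumbar gene, and the probes of Hoxa2, Hoxa5, Hoxb1, Hoxc5, Hoxc8, Hoxc12 and Hoxd11. Their levels ran from -8.10 to -4.13, and on single arrays the lowest level of any probe that was well above background lay between -5.95 and -3.97. By cluster, the tested probes were 7 of 14 in a, 9 of 14 in b, 2 of 9 in c and 6 of 12 in d, and by number 4 of 11 anterior, 8 of 18 central and 12 of 20 posterior. A probe entered the tests through the group in which it was bright, so counts among the tested probes describe them and are no measure of all Hox genes.

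Hox probes were well above background in fewer places in ES cells and at day 7 than at day 12, at day 16 and in juvenile testis. In Stella-GFP ES cells the arrays held 7 and 10 (GFP-negative) and 5 and 6 (GFP-positive) such probes, and in Dazl-GFP ES cells 5 and 13 (GFP-negative) and 9 and 13 (GFP-positive). Both day 7 arrays, the only ones with another extraction protocol, held 4. The day 12 arrays held 15 and 20, the day 16 arrays 16 and 17, and the juvenile testis arrays 20 and 23. Every array of these 3 groups held more than any array of ES cells or of day 7. The lowest level passing the flag differed too. It was -4.84 to -3.97 on ES arrays, -4.58 and -4.55 at day 7 and -4.94 to -4.84 at days 12 and 16. In juvenile testis it was -5.44 and -5.95. The E13.5 arrays held 19 and 10, replicate 1 having the 19. Counted on both arrays of a group, 3 (Stella-GFP-positive ES cells) to 18 (juvenile testis) Hox probes were detected, 6.12% to 36.7%, against 49.2% to 63.0% of all probes. That share of all probes was 49.2% in Dazl-GFP-positive ES cells, 55.2% at day 12, 56.9% at day 16 and 63.0% in juvenile testis. Cluster b gave 8 of the 14 at day 12, 8 of the 16 at day 16 and 9 of the 18 in juvenile testis, but 2 of the 9 in Dazl-GFP-positive ES cells, where cluster a gave 4. With 2 arrays against 2 an exact two-sided permutation test cannot go below p = 0.333, so these counts are a description.

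**Figure D2:**
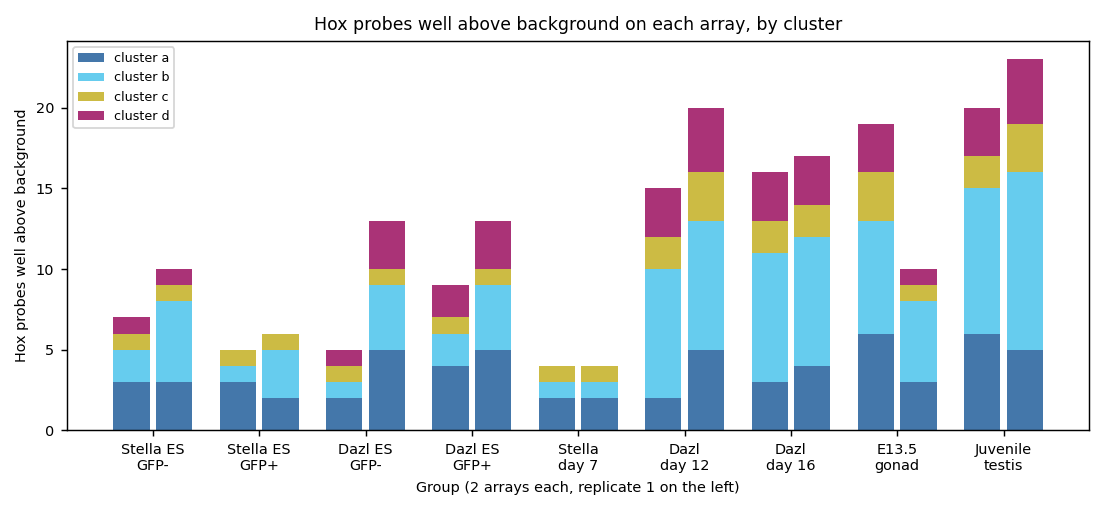
Number of the 49 Hox probes well above background on each array (2 bars per group, replicate 1 on the left), stacked by cluster. The bars are lowest at day 7, with 4 on each array, and highest in juvenile testis, with 20 and 23. Only the day 7 arrays had another extraction protocol. The E13.5 arrays differ, with 19 and 10. The lowest level that passed the flag differed between arrays.

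A set of 3 probes was detected on all 18 arrays. The probe A_52_P447935 of Hoxa3, a gene of the pharyngeal arches, had levels from -3.52 to -1.86. Hoxc4, a cervical gene, had levels from -2.94 to -1.28, and the probe A_52_P648750 of Hoxb6, a thoracic gene, from -2.29 to -0.84. They ranged over 1.67, 1.66 and 1.45, and none was called in any of the 11 comparisons. The other Hoxa3 probe, on the same accession, was well above background on no array, and the other Hoxb6 probe on 12. The 2 Hoxb6 probes cite different accessions.

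In the Dazl-GFP line, the sort compared ES cells that express the reporter with those that do not, and 5 probes, of the posterior genes Hoxa10, Hoxa11, Hoxb9 and Hoxd13, were called higher in the positive cells. Of the 24 tested probes 12 are posterior, and 3 of the 5 entered the tests only through this group. Hoxa10, which patterns the lumbar axis and the uterus, was at -3.18 and -3.14 in GFP-positive cells and at -5.66 and -5.87 in GFP-negative cells. It was well above background in that group and nowhere else. GFP-positive cells were at least 2.49-fold higher (adjusted p = 0.00809), a bound set by the lowest signal that is well above background in the dim group. Hoxa11, a gene of the forearm and the female tract, was at -2.03 and -2.34 against -4.16 and -4.42, a rise of 2.11 ± 0.41 (log2 difference ± SE, adjusted p = 0.0255). Its GFP-negative replicate 2 was the one array outside the GFP-positive group on which it was well above background.

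Hoxd13, which shapes digits and external genitalia, rose by both probes in Dazl-GFP-positive ES cells. The probe A_52_P591310 was at -2.07 and -1.73 in GFP-positive and at -3.54 and -3.03 in GFP-negative cells, a rise of 1.39 ± 0.25 (adjusted p = 0.0181). The probe A_51_P284571 was at -3.32 and -3.20 against -4.77 and -4.99, at least 2.31-fold higher (adjusted p = 0.0181), and was well above background in no other group. Hoxd10, a gene of the hind limb and lumbar cord, was at -3.44 and -2.94 in GFP-positive cells and between -7.19 and -4.78 on all other arrays. Only the -2.94 was well above background, so that it was not tested. Hoxd12 lies between Hoxd13 and Hoxd10 (with Hoxd11, detected on no array) and was at -4.57 and -4.00 in GFP-positive and -4.29 and -4.19 in GFP-negative cells. Of these only the -4.19 was well above background, so that a difference could not be measured.

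limma called 5 of the 24 tested Hox probes in this sort, all higher (Hoxa10, Hoxa11, Hoxd13 by both probes, and Hoxb9 by A_52_P973575, dim in both gates), against 2.25% of the 28114 probes tested, 1.14% higher and 1.11% lower. Under normexp background correction, which adds an offset to every signal, none of the 5 was called. The median difference of the 24 was 0.32, against 0.04 over all tested probes. Within the slides that held both gates, measured levels (at background in GFP-negative cells for Hoxa10 and A_51_P284571) of Hoxa10 differed by 2.49 and 2.73, Hoxa11 by 2.13 and 2.08, and the probes of Hoxd13 by 1.30 to 1.79. With slide as a block Hoxa10 and Hoxb9 stayed called, and Hoxa11 and Hoxd13 had adjusted p between 0.0702 and 0.0744. The count was 0 without GFP-negative replicate 1, GFP-positive replicate 1 or GFP-positive replicate 2 and 1 (Hoxb9) without GFP-negative replicate 2. Fibroblast markers moved with these probes: 7 of 20 were called higher and none lower (median 1.64), among them the microfibril gene Fbn1 (2.28 ± 0.40) and the collagen genes Col5a2 (2.76 ± 0.53) and Col1a1 (2.46 ± 0.50). The list had 18 and 20 of its 20 members well above background on the GFP-negative and 19 on each of the GFP-positive arrays. Its part in the Hox result was not tested.

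**Figure D3:**
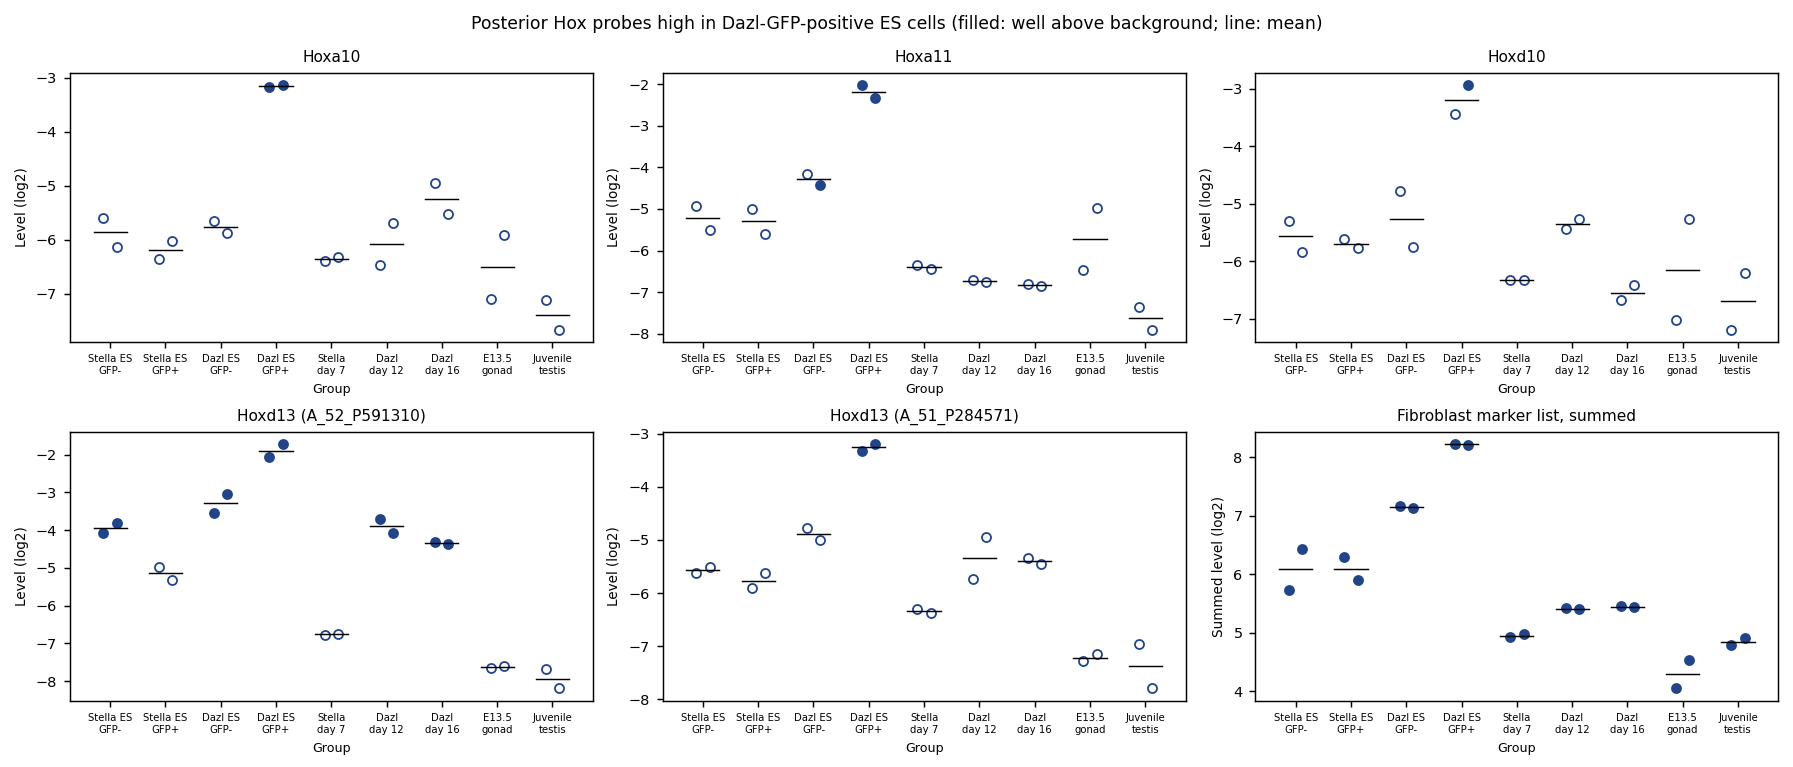
Level of Hoxa10, Hoxa11, Hoxd10 and the 2 probes of Hoxd13, and the summed level of the 20 fibroblast markers, in each group (1 point per array; horizontal lines are group means; open points are not well above background, and points of the marker panel are all filled). Each panel is highest in Dazl-GFP-positive ES cells, where Hoxa10 is at -3.18 and -3.14 and the markers are at 8.22 and 8.21.

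In the Stella-GFP line limma called 1 Hox probe, against 0.395% of all tested probes (0.0854% higher, 0.309% lower). Hoxa7, a thoracic gene, was at -2.16 and -2.43 in GFP-negative and at -3.18 and -3.89 in GFP-positive ES cells, where only the first of these was well above background. It fell by 1.24 ± 0.23 (adjusted p = 0.0463), by 1.02 and 1.46 within the slides. The call was lost with slide as a block (adjusted p = 0.0797) and without either GFP-negative array or GFP-positive replicate 2 (adjusted p up to 0.279). Under normexp its difference was 0.078. Its difference in the Dazl sort was 0.75 ± 0.23 (adjusted p = 0.139). Hoxa10 was between -6.35 and -5.60 and Hoxa11 between -5.60 and -4.92 on the 4 arrays of Stella-GFP ES cells, none of them well above background. Fibroblast markers had 0 members called in the Stella sort and a median of 0.42, their summed level being 5.74 and 6.44 in GFP-negative and 6.29 and 5.89 in GFP-positive cells.

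The interaction contrast, the Stella sort minus the Dazl sort, called 1 Hox probe, against 0.0285% of all tested probes (0.00711% higher, 0.0213% lower). The probe A_52_P591310 of Hoxd13 differed by -2.59 ± 0.35 (adjusted p = 0.0432). It was at -4.07 and -3.81 in Stella-GFP-negative and at -4.96 and -5.32 in Stella-GFP-positive ES cells, a difference that was not called (adjusted p = 0.0824), while it rose in the Dazl sort. It was not well above background in Stella-GFP-positive cells, so that the contrast rests in part on values at background. The contrasts of Hoxa10 (adjusted p = 0.146) and Hoxa11 (adjusted p = 0.434) were not called; both genes were dim in both Stella gates, so no size is given. The Hoxd13 call was lost under normexp, with slide as a block (adjusted p = 0.235) and without Stella-GFP-negative replicate 2, Stella-GFP-positive replicate 2, Dazl-GFP-negative replicate 1 or Dazl-GFP-positive replicate 2 (adjusted p up to 0.266). The count was 2 without Stella-GFP-positive replicate 1, and 5 without the array labelled E13.5 replicate 1. The fibroblast list had a median of -1.49 in this comparison with 0 of 20 called, and its part was not tested.

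Day 7 cells of the Stella-GFP line, compared with the GFP-positive ES cells of that line, had the fewest Hox probes well above background. Among the 4 on both arrays were the probes of Hoxa3, Hoxb6 and Hoxc4 detected everywhere. limma called 3 of the 24 probes lower and none higher, against 20.1% of all tested probes (8.5% higher, 11.6% lower); under normexp none was called. Hoxa7 was at -4.63 and -4.42, at least 1.93-fold lower (adjusted p = 0.0115). Hoxb4, a regulator of blood stem cells, and Hoxd13 (A_52_P591310) were dim on all 4 arrays, and with low signals floored both differences were 0.064, so no size is given. The calls numbered 1 without ES replicate 1 or day 7 replicate 1, 2 without either other array and 5 without the array labelled E13.5 replicate 1. Only Hoxd13 was called whichever of the 4 was left out. Day 7 arrays filled slides of their own and had another extraction protocol, so slide and group cannot be told apart. The fibroblast list had 12 of 20 lower (median -1.64), and its part was not tested.

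Between Dazl-GFP-positive ES cells and Dazl-GFP-positive cells at day 12 and day 16 different Hox genes were called higher and lower, those lower being mostly posterior genes of clusters a and d. Both times are compared with the same 2 ES arrays, as are E13.5 and juvenile testis further on, so agreement between these comparisons is not independent. limma called 11 of the 24 probes at day 12, 6 higher and 5 lower, against 25.7% of all tested probes (12.2% higher, and 3782 of the 28114 lower). It called 11 at day 16, 6 higher and 5 lower, against 23.1% (10.8% higher, 12.2% lower). Under normexp background correction none was called, and the differences of 5 of the 6 probes called higher at day 12 and of the 5 called lower at day 16 turned sign. Medians of the 24 were 0.26 and 0.31, against -0.11 and -0.12 over all tested probes.

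Hoxb9, a thoracic gene, was the member with the lowest adjusted p among those higher. Its probe A_52_P973575 was at -2.30 and -2.48 at day 12 and at -2.32 and -2.15 at day 16, and at -4.43 and -4.48 in the ES cells. It was at least 3.05-fold higher at day 12 (adjusted p = 1.52e-05) and at least 3.39-fold higher at day 16 (adjusted p = 1.03e-05), though normexp gave -0.22 at day 12. The groups did not overlap. The other probe, A_52_P98462, was at -2.19 and -2.11, then at -1.67 and -1.49, and at -3.43 and -3.13 in ES cells. Its difference was 1.13 ± 0.44 at day 12, not called (adjusted p = 0.0837), and 1.70 ± 0.44 at day 16 (adjusted p = 0.0176), lost whichever of the 4 arrays was left out.

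The paralogues of Hoxb9 in clusters c and d were called in the same direction, Hoxd9 at day 12 by 1 of its 2 probes. Under normexp, where dim probes follow the array's percentile by construction, the day 12 differences were -0.36 for Hoxc9 and -0.37 for Hoxd9. Hoxd9 (A_52_P385584), a gene of the lumbar axis and hind limb, was at -3.24 and -3.37 at day 12 and at -3.71 and -3.40 at day 16, against -5.70 and -6.17 in ES cells. It was at least 1.61-fold higher (adjusted p = 5.30e-04) and at least 1.35-fold higher (adjusted p = 0.00111). By its other probe, A_51_P430728, Hoxd9 was not called at day 12, with overlapping levels of -4.01 and -4.82 against -5.81 and -4.76 in ES cells. At day 16 Hoxd9 was called higher by that probe too, at -3.71 and -3.68. Its neighbour Hoxd10 was at -5.44 and -5.27 at day 12 and -6.67 and -6.42 at day 16, below its ES levels of -3.44 and -2.94 and not well above background. Hoxc9, which organises thoracic motor neurons, was at -3.37 and -3.31, then at -3.05 and -3.42, and at -5.53 and -4.70 in ES cells. It was at least 1.57-fold higher (adjusted p = 0.0419) and at least 1.69-fold higher (adjusted p = 0.0359), both lost whichever array was left out. Hoxa9, the paralogue in cluster a, was well above background in none of these 3 groups, with levels between -7.12 and -4.73.

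Hoxb2, a gene of the hindbrain, was at -3.10 and -3.06 at day 12 and -3.01 and -3.11 at day 16 by A_52_P15300, against -5.74 and -4.03 in ES cells. It was at least 1.88-fold and at least 1.91-fold higher (adjusted p = 0.0233 and 0.0241), and the ES arrays lay further apart than the groups' nearest arrays. Both Hoxb2 calls were lost without ES replicate 1 or either differentiated array. Hoxb13, the last gene of cluster b and active in tail and prostate, was at -3.09 and -3.01 at day 12 and at -4.55 and -4.77 at day 16, against -5.90 and -6.12. It was at least 1.92-fold higher at day 12 (adjusted p = 0.0279, lost whichever array was left out), and was not called at day 16 (adjusted p = 0.290). With slide as a block the calls of Hoxb2, Hoxb13 and Hoxc9 were lost at day 12 (adjusted p from 0.0667 to 0.176).

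**Figure D4:**
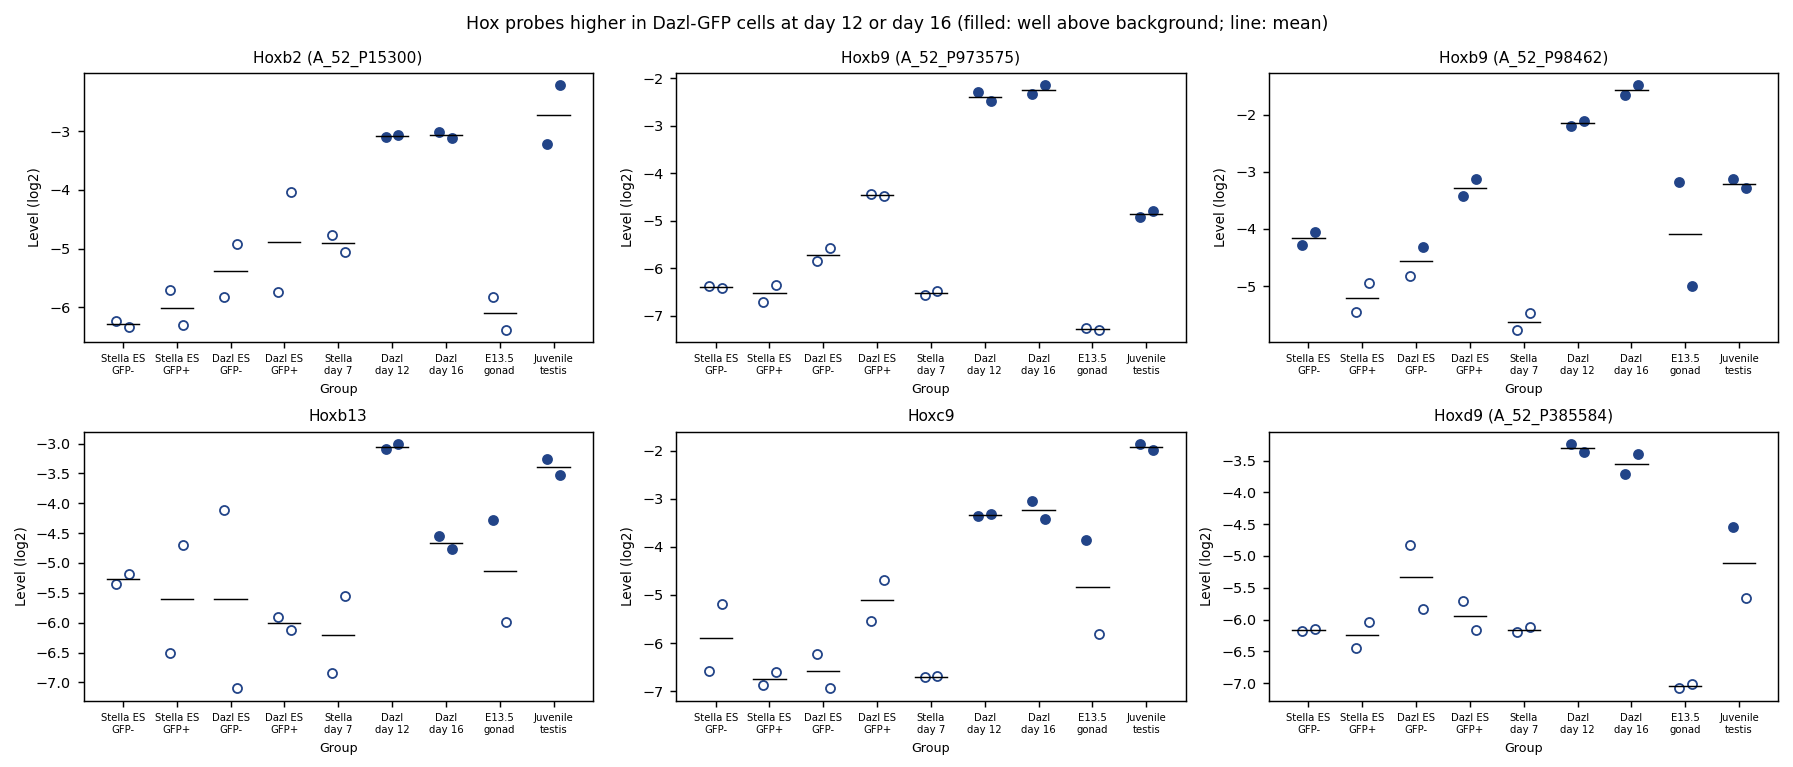
Level of 5 Hox probes called higher in Dazl-GFP cells at day 12 than in Dazl-GFP-positive ES cells (normexp turned the sign of all 5), with the second Hoxb9 probe, A_52_P98462, called higher at day 16 (1 point per array; lines are group means; open points are not well above background). The 5 are filled at day 12 and open in Dazl-GFP-positive ES cells, for example Hoxb9 (A_52_P973575) at -2.30 and -2.48 against -4.43 and -4.48.

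Of the posterior genes called higher in Dazl-GFP-positive than in GFP-negative ES cells, Hoxa10, Hoxa11 and Hoxd13 were lower at both times, while Hoxb9 was higher. For the lower ones normexp gave differences between 0.078 and 0.30 at day 16. Hoxa10, Hoxa11 and Hoxd13 by A_51_P284571 entered the tests only through those ES cells, so lower values elsewhere in part restate that choice. Hoxa11 was at -6.71 and -6.75 at day 12 and at -6.80 and -6.84 at day 16, at least 6.45-fold and at least 6.71-fold lower (adjusted p = 2.30e-05 and 2.27e-05). Hoxa10 was at -6.47 and -5.69, then at -4.95 and -5.53, at least 3.29-fold and at least 3.42-fold lower. Hoxd13 (A_52_P591310) stayed well above background, at -3.71 and -4.08, then at -4.31 and -4.36, and fell by 2.00 ± 0.25 and by 2.43 ± 0.25 (adjusted p = 2.09e-04 and 6.48e-05). By A_51_P284571 it was at least 3.06-fold and at least 3.18-fold lower. Hoxa7, at -4.54 and -4.30, then at -3.89 and -3.92, fell by 2.02 ± 0.23 and by 1.51 ± 0.23 from -2.46 and -2.34.

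These lower calls, and those of Hoxb9 (A_52_P973575) and Hoxd9 (A_52_P385584), were kept whichever of the 4 arrays was left out, 7 of 11 at either time. The count was 7 without day 12 replicate 1 and 7 without day 16 replicate 1. On slide 3, which held arrays of all 3 groups, measured levels, at background on the lower side, of Hoxa11 differed by -4.41 at day 12 and -4.51 at day 16 and Hoxb9 by 2.01 and 2.34. Slide as a block left 7 calls at either time. Fibroblast markers moved too: 15 of 20 were lower at day 12 (median -3.57) and 14 at day 16 (median -2.56), with 1 higher at each. S100a4 (6.49 to -3.48 at day 12) and the mesenchymal factor Prrx1 (-0.57 to -5.34) were among them. Their part in the lower Hox calls was not tested.

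The comparison of day 16 with day 12 called 0 of the 24 Hox probes with limma, 1 at an unadjusted p under 0.05 (Hoxa7), against 0.772% of all tested probes (0.477% higher, 0.295% lower). Under normexp the count was 13, all higher, where 12020 of the 28114 tested probes were called, 9872 of them higher. It was 3 in a fit of only these arrays, where 4264 of the 28114 were called. With low signals floored it was 1, where 330 of the 28114 were called. Hoxb13, whose arrays did not overlap between the times, had a difference of -1.61 ± 0.87, and Hoxd13 (A_52_P591310) of -0.44 ± 0.25. The 14 probes detected on both arrays at day 12 stood for 12 genes, and all 12 were also detected on both arrays at day 16, with Hoxa7 in addition.

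At E13.5, 12 of the 24 tested Hox probes were called lower than in the cells cultured to day 16, and 11 were not called. limma called 13 against day 16, 12 lower and 1 higher, 4 of them dim in both groups, where 41.8% of all tested probes were called, 23.7% higher and 18.1% lower. Hoxa11, the one higher, was dim in both groups, and its difference turned to -1.72 under normexp and -0.27 with low signals floored. The median of the 24 was -1.18, against 0.18 over all tested probes. Hoxb9 (A_52_P973575) was at -7.25 and -7.29, at least 8.90-fold lower than at day 16 (adjusted p = 2.28e-08). Hoxd9 was at -7.08 and -7.01 by A_52_P385584, at least 3.56-fold lower, and Hoxb2 at -5.82 and -6.38 by A_52_P15300, at least 5.02-fold lower. Hoxd13 (A_52_P591310) was at -7.66 and -7.59, at least 2.08-fold lower. These held whichever of the 4 arrays was left out. Hoxb7, a thoracic gene, was well above background in both groups, at -4.73 and -4.64 against -2.74 and -2.62, and fell by 2.01 ± 0.57 (adjusted p = 0.0151). That call was lost without either day 16 array or the array labelled E13.5 replicate 1.

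Without the array labelled E13.5 replicate 1 the count was again 13, and without day 16 replicate 1 it was 7, as in a fit of only these 4 arrays. Replicate 1 alone was well above background for Hoxb3, a gene of hindbrain and pharynx (-2.03 against -5.90 on replicate 2), and for Hoxd1, an anterior gene (-2.06 against -6.17). For both this was the highest level of the series. Hoxc9 (-3.86 and -5.82), Hoxb13 (-4.28 and -5.99) and Hoxd8 (-4.44 and -6.97) were likewise detected on replicate 1 and not on replicate 2. Hoxb4, Hoxb6, Hoxb7, Hoxa7 and Hoxd12, a limb gene, were detected on both, besides Hoxa3, Hoxb9 and Hoxc4, and Hoxd12 on both arrays in this group only. The lowest level passing the flag at E13.5, -5.42 and -5.35, was below that of every array of cultured cells. Markers of Sertoli cells, the supporting cells of the testis, had a summed level of -0.80 with 4 of 7 detected on replicate 1 and 3.27 with 7 of 7 on replicate 2. Their part in the difference between the arrays was not tested.

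Against Dazl-GFP-positive ES cells, 7 Hox probes were lower at E13.5 and none higher, where 44.7% of all tested probes were called (23.9% higher, 20.8% lower). Hoxa7, detected in both, was at -3.80 and -3.74 and fell by 1.37 ± 0.23 (adjusted p = 5.43e-04). Hoxa11 was at least 8.09-fold, Hoxa10 at least 4.70-fold and Hoxd13 at least 11.2-fold and at least 4.37-fold lower by its 2 probes. Of these, Hoxa10, Hoxa11 and Hoxd13 by A_51_P284571 entered the tests only through the ES cells, so lower values here in part restate that choice. Hoxb9 (A_52_P973575) and Hoxd9 (A_52_P385584) were dim in both groups and have no size. The calls other than that of Hoxd9 were kept whichever array was left out. Without the array labelled E13.5 replicate 1 the count was 8, all lower, but without replicate 2 it was 9, of which 3 were higher and 6 lower. With low signals floored it was 14 of 24, all lower, where 14346 of 28114 probes were called, 8200 of them lower. With no filter on dim probes it was 17 of 49, all lower, where 20690 of 41002 were called. Under normexp it was 24 of 24, all lower, where 18218 of 28114 were called, 13388 of them lower. It was 4 of 19 with 1 probe a gene, where 8535 of 19024 were called. The strict filter gave 1 of 5, where 9628 of 19271 were called. Of the fibroblast list, 17 of 20 were lower (median -4.14), and its part was not tested. No slide held E13.5 or juvenile arrays together with cultured cells, so slide and group cannot be told apart in these comparisons.

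Juvenile testis germ cells had the most Hox probes detected, and Hoxb7 had its highest levels there. Dimmer levels passed the flag in this group. The lowest level well above background was -5.44 and -5.95 here, against -4.02 and -3.97 in Dazl-GFP-positive ES cells. Hoxb7 was at -0.95 and 0.13, against -4.73 and -4.64 at E13.5 and -3.99 and -3.43 in Dazl-GFP-positive ES cells. It rose by 4.28 ± 0.57 over E13.5 (adjusted p = 1.82e-04) and by 3.30 ± 0.57 over ES cells (adjusted p = 5.09e-04), and both calls were kept whichever array was left out. Hoxb6 (A_51_P232207) was at -2.82 and -0.36, against -4.68 and -4.26 at E13.5, a rise of 2.88 ± 0.97 (adjusted p = 0.0375) that was lost without juvenile replicate 2 or either E13.5 array. Its other probe was at -2.16 and -1.96. Hoxb5, a gene of the cervical axis, was at -5.37 and -2.85, and the second was the one array of the 18 on which it was well above background.

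limma called 8 of the 24 probes between juvenile testis and E13.5, 7 higher and 1 lower, where 35.7% of all tested probes were called, 17% higher and 18.7% lower. Besides Hoxb7 and Hoxb6, Hoxc9 was at -1.87 and -1.98 against -3.86 and -5.82 and rose by 2.92 ± 0.58 (adjusted p = 0.00223). Hoxb2 was at -3.22 and -2.22 by A_52_P15300 and at least 6.35-fold higher, and at -4.69 and -3.90 by A_51_P257789 and at least 2.13-fold higher. Hoxb9 (A_52_P973575) was at -4.92 and -4.80, at least 1.44-fold higher, and Hoxd9 (A_52_P385584) at least 1.22-fold higher. The last 2, and the second Hoxb2 probe, turned to -0.30, -0.30 and -0.11 under normexp. Hoxa11 was dim in both and called lower. The count was 12 without the array labelled E13.5 replicate 1 and 4 in a fit of only these arrays. Sertoli markers moved with the higher probes: 4 of 7 were higher and none lower (median 2.97), including Inha (3.13 ± 0.59) and Wt1 (2.25 ± 0.58). Their summed levels were 5.36 and 3.34, with 7 of 7 detected on both arrays. Of the fibroblast list 9 were higher and 2 lower. The part of either in the Hox result was not tested.

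Against Dazl-GFP-positive ES cells, 12 of the 24 were called in juvenile testis, 7 higher and 5 lower. Over all tested probes 54.6% were called (27.8% higher, 26.8% lower). Under normexp 21 of the 24 were called, all lower, where 19648 of the 28114 tested probes were called, 14906 of them lower. Hoxc9 was at least 4.20-fold higher (adjusted p = 6.69e-04), but at -0.43 under normexp. Hoxb2 (A_52_P15300) was at least 2.41-fold and Hoxb13 at least 1.52-fold higher, with normexp values of -1.01 and -1.13. The second Hoxb2 probe, Hoxb4 and Hoxd8 were called higher with a bound under 1, and turned under both normexp and floored low signals, so no size is given. Hoxd13 was at -7.67 and -8.19 by A_52_P591310, at least 13.9-fold lower, and Hoxa11 at -7.37 and -7.90, at least 11.4-fold lower. Hoxa10 was at least 5.82-fold lower and Hoxa7, at -3.12 and -3.25, fell by 0.78 ± 0.23 (adjusted p = 0.0126). Among the lower calls, Hoxa10, Hoxa11 and Hoxd13 by A_51_P284571 entered the tests only through the ES cells. The count was 7 without ES replicate 2. The calls of Hoxa7, Hoxb4 and the second Hoxb2 probe were lost without ES replicate 2 or juvenile replicate 2, that of Hoxd8 without either ES array or juvenile replicate 1 (adjusted p up to 0.199), and that of Hoxb13 whichever array was left out. Of the fibroblast list 14 were lower and 2 higher, and of the Sertoli list 4 higher, the part of either being not tested. Hoxa6 and Hoxa9, of the thoracic axis, and Hoxd8 passed the background flag on both arrays in this group only. By level Hoxa6 was not highest there, with a mean of -4.65 against -4.36 to -4.00 in the ES groups. Its means were -4.74 at day 7, -4.32 at day 12, -4.55 at day 16 and -4.72 at E13.5.

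**Figure D5:**
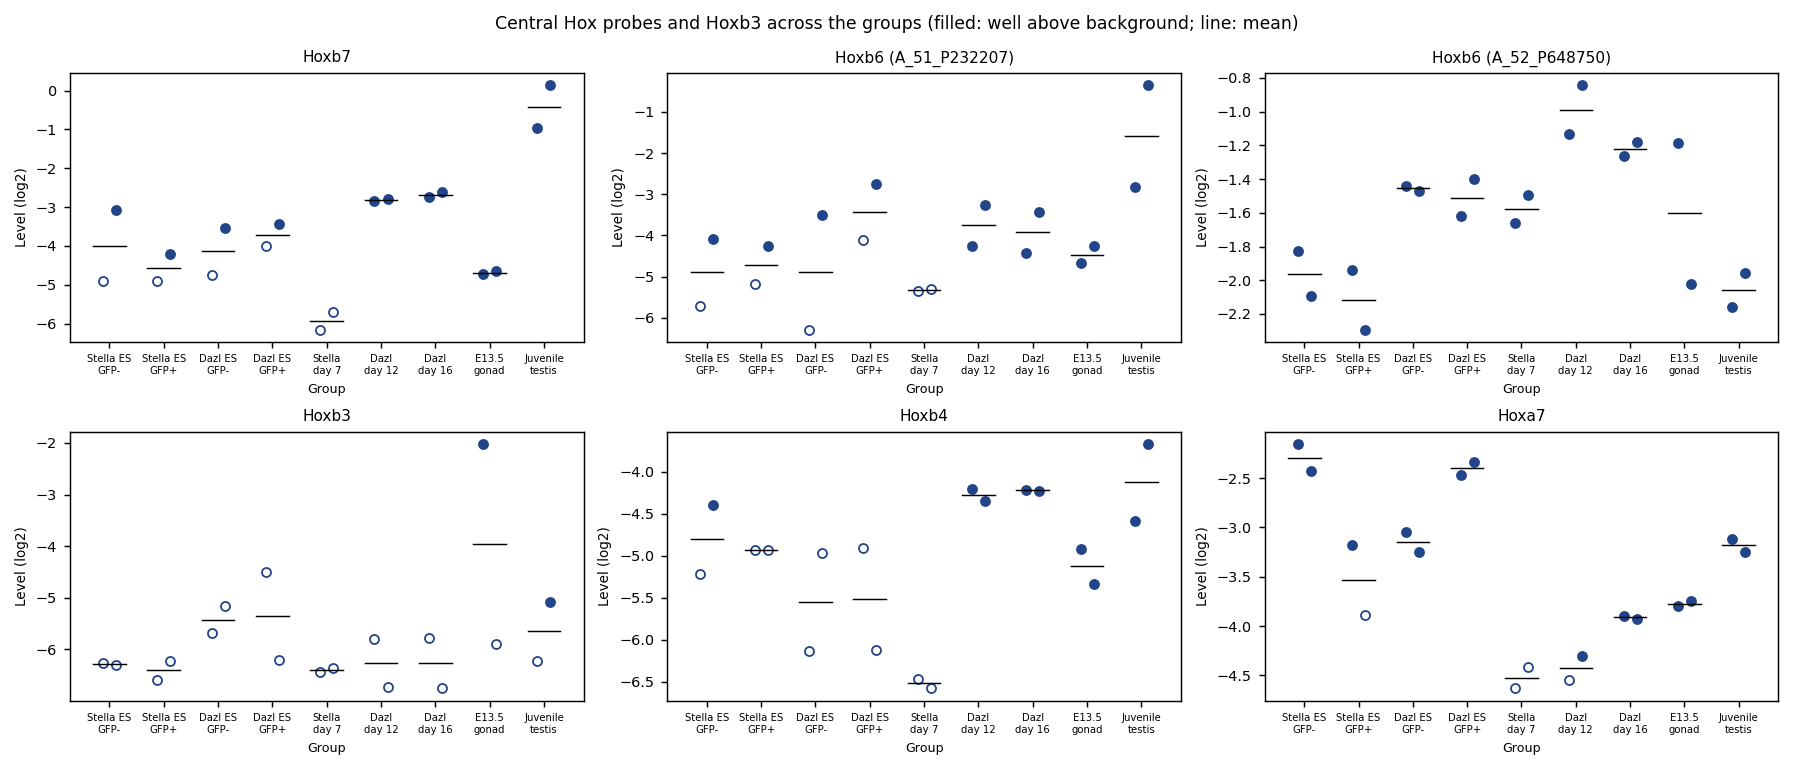
Level of Hoxb7, the 2 probes of Hoxb6, Hoxb3, Hoxb4 and Hoxa7 in each group (1 point per array; lines are group means; open points are not well above background). Hoxb7 is highest in juvenile testis, at -0.95 and 0.13, and Hoxb3 on 1 of the 2 E13.5 arrays, at -2.03 against -5.90 on the other.

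The 11 genes with 2 probes showed how far a gene's value depended on its probe. Both probes were tested for 5 genes, 1 for Hoxa3, and neither for the other 5. The probes of Hoxd13 were called together in 6 comparisons (the Dazl sort, day 12, day 16, E13.5 and juvenile testis against ES cells, and E13.5 against day 16), and in the same direction in each. All but the last reuse the same 2 Dazl-GFP-positive ES arrays, the only ones with A_51_P284571 well above background. In the last, that probe was dim in both groups. The probes of Hoxb6 were never called together: in juvenile testis against ES cells they differed by 1.85 ± 0.97 and -0.55 ± 0.26, neither called. Those of Hoxd9, which cite the same accession, were both called at day 16 and at E13.5 against day 16, and at day 12 against ES cells only A_52_P385584 was.

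Hox proteins bind DNA with partners of the Pbx, Meis and Pknox families. Of 9 such genes 7 were measured and tested, and 0 were called in either sort, beside 0.395% (Stella) and 2.25% (Dazl) called over all probes. At day 7, 2 were called higher than in the ES cells of that line and 0 lower (median -0.11), beside 20.1% called over all probes. Shares of all tested probes called against ES cells were 23.1% at day 16, 44.7% at E13.5 and 54.6% in juvenile testis. Meis1, well above background on neither Dazl-GFP-positive ES array, was called higher at day 16 (-3.25 against -6.13). At E13.5, 4 were higher and 1 lower than in ES cells, among them Pbx2 (2.16 ± 0.32). In juvenile testis 3 were higher, including Pbx4 (1.29 ± 0.16), the Pbx gene of the testis. The median of the list against ES cells was 0.44 at day 12, 0.43 at day 16, 1.89 at E13.5 and 0.73 in juvenile testis.

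Of 17 genes that activate the clusters or neighbour them, all were measured and 16 tested. Fgf8, a signal of the primitive streak, fell in both sorts, by 3.41 ± 0.35 in Stella-GFP and 3.48 ± 0.35 in Dazl-GFP cells, and Evx1, the homeobox gene next to Hoxa13, fell by 3.28 ± 0.73 in the Dazl sort. At day 12, 2 were higher and 4 lower than in ES cells, and at day 16 also 2 and 4, where 25.7% and 23.1% of all tested probes were called. The higher ones were Rarb, a retinoic acid receptor that is itself a target of retinoic acid (-2.14 and -1.69 in mean level, against -5.08 and not well above background in ES cells), and Kdm6b, a demethylase of the Polycomb mark (0.74 ± 0.19 and 0.86 ± 0.19). Evx1 was among the lower ones, with Fgf8 and Gbx2. At E13.5, 1 was higher and 3 were lower than in ES cells, beside 44.7% called over all probes. In juvenile testis Aldh1a2, which makes retinoic acid, rose by 3.60 ± 0.57 and Kdm6b by 1.90 ± 0.19, with 6 lower, beside 54.6% called over all probes.

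Of the 15 Polycomb genes, all tested, 0 were called in either sort. Against the ES cells of their line, 3 were higher and 3 lower at day 7, 2 and 5 at day 12, and 4 and 4 at day 16, beside 20.1%, 25.7% and 23.1% called over all probes. At E13.5, 5 were higher and 6 lower, beside 44.7%, and in juvenile testis 6 and 9, beside 54.6%. Bmi1, a subunit of the ubiquitin ligase complex, was higher at day 12 (2.32 ± 0.32), day 16 (2.86 ± 0.32), E13.5 (3.61 ± 0.32) and in juvenile testis (1.87 ± 0.32). Eed, a core subunit of the methyltransferase complex, was lower at the same 4 stages, with differences of -1.11 ± 0.19, -1.10 ± 0.19, -2.23 ± 0.19 and -1.92 ± 0.19. The list's medians, between -0.74 and 0.20 in these 4 comparisons, lay beside -0.12 to 0.07 over all tested probes.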

How the data were processed

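Spots of 18 one-colour arrays were read by the authors in Feature Extraction (version 9.1.3.1, per the file headers). The values used are the deposited processed signals, of the unit intensity, with no scaling from one array to another. The extraction's flags (unit other: well above background, positive and significant, outlier) were deposited beside them. The genome build is not given in the sources used here.

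Of 43379 spots that are not controls, spots with outlier flags were left out (172 probes lost all of them, none of them Hox). Each signal was divided by the 75th percentile of its array and put on the log2 scale, and spots of a probe were averaged. A probe well above background on both arrays of at least 1 group was tested (28114 probes). All arrays entered 1 fit in limma 3.58.1 (R 4.3.3, data.table version 1.17.8; 9 residual degrees of freedom, prior 2.50, prior SD 0.293), and calls are adjusted p-values under 0.05 (Benjamini-Hochberg, over all tested probes). The procedure was checked on simulated data. Where a called probe was well above background on no array of its lower group, the fold is a bound: the higher group's mean against the mean, per array, of the probe's level or the lowest level well above background. No fold is given where both groups were dim or the bound was under 1.

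The members, lists and comparisons were chosen with earlier results of these data known. Every Hox probe may be named, with up to 3 called list members per direction with the smallest p, and Dazl, Dppa3, Ddx4 and Pou5f1 as checks of the labels. Ddx3y and Eif2s3y, and members named for comparison across stages, were chosen after their values were seen. Of the 49 accessions 44 matched their symbol in RefSeq (GRCm38.p6) and 5 had no match there. Antisense transcripts of the clusters were not analysed here, and the values of 1 Hox probe and of 1 cofactor gene are not reported here, though counts include them. The labels' replicate numbers name samples only, since 2 pairs a comparison cannot show a pairing. Tables and plots used Python 3.11.15 with numpy 2.4.6, pandas 2.3.3 and, for the plots, matplotlib 3.10.9.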

Additional observations from a re-analysis of the deposited data

Results flagged for a closer look

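The change of Hoxd13 (A_52_P591310) between GFP-positive and GFP-negative ES cells differed between the lines by a test of the difference itself: Stella minus Dazl was -2.59 ± 0.35 (adjusted p = 0.0432, limma). The probe was not well above background on either Stella-GFP-positive array, so the size rests in part on values at background. The Stella sort itself was not called for it (adjusted p = 0.0824), and the Dazl sort was, at 1.39 ± 0.25. The call was lost in 4 of the 8 fits that left out 1 ES array. Its other probe, A_51_P284571, was well above background in Dazl-GFP-positive ES cells alone, and its contrast between the sorts was not called (adjusted p = 0.288).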

How the results depend on the processing

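The number of arrays and the low signal of most Hox probes over background limit every result. The 72 named calls were recomputed under each alternative: 785 values kept direction and side of the threshold, 190 kept the direction alone and 28 turned. Counts below follow the order Stella sort, Dazl sort, sort difference, day 7, day 12, day 16, day 16 against 12, E13.5 against ES cells and against day 16, juvenile testis against ES cells and against E13.5.

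Normexp background correction gave 0, 0, 0, 0, 0, 0, 13, 24, 24, 21 and 1. Over all 28114 tested probes it called 11, 81, 0, 1018, 1679, 1195, 12020, 18218, 20677, 19648 and 6570. Its offset of 50 puts a probe without signal at a level from -3.42 to -1.92 depending on the array's 75th percentile, so that dim probes follow that percentile by construction; the median over all tested probes then lay between -0.78 and 0.42. It turned Hoxa7 (0.078) in the Stella sort; Hoxb13 (-0.26), Hoxb2 (-0.38), Hoxc9 (-0.36), Hoxd9 (-0.37) and Hoxb9 (-0.22) at day 12; Hoxa11 (0.11), Hoxd13 (0.30 and 0.078), Hoxa10 (0.27) and Hoxa7 (0.20) at day 16. It also turned Hoxa11 (-1.72) at E13.5 against day 16; in juvenile testis Hoxb2 (-1.54 and -1.01), Hoxb13 (-1.13), Hoxc9 (-0.43), Hoxd8 (-1.63) and Hoxb4 (-1.45) against ES cells, and Hoxb2 (-0.11), Hoxd9 (-0.30) and Hoxb9 (-0.30) against E13.5. Floored low signals turned Hoxb4 (0.064) and Hoxd13 (0.064) at day 7, Hoxa11 (-0.27) at E13.5 against day 16, and Hoxb2 (-0.30), Hoxd8 (-0.14) and Hoxb4 (-0.13) in juvenile testis against ES cells. Quantile normalization turned Hoxd9 (0.0028) at E13.5 against ES cells.

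Floored low signals gave 3 calls in the sort difference, 1 at day 7, 1 for day 16 against 12 and 14 at E13.5 against ES cells. The share of Hox calls that were higher was 54.5% at day 12, 54.5% at day 16 and 58.3% in juvenile testis against ES cells, and 36.4%, 33.3% and 28.6% with that floor. No filter, which tests all 49 Hox probes, gave 0 in the Stella sort, 0 in the sort difference, 17 at E13.5 and 23 in juvenile testis against ES cells. Over all 41002 probes it called 73, 6, 20690 and 23849 in the same order. The strict filter, every array compared well above background, tested fewer probes and gave 0, 1, 0, 0, 1, 3, 0, 1, 2, 1 and 2. A fit of only the arrays compared gave 0 in the Stella sort, 0 in the sort difference, 3 for day 16 against 12, 7 for E13.5 against day 16 and 4 for juvenile testis against E13.5. With 1 probe a gene, which tests fewer probes, there were 3 in the Dazl sort, 4 at E13.5 against ES cells and 4 in juvenile testis against E13.5. An intensity trend gave 0, 3 and 0 in the sorts and their difference. Slide as a fixed block gave 0, 2 and 0 there and 7 at day 12 and day 16, and as a random block 0 in the Stella sort. The cause of these moves was not tested.

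The replicate block, for numbers that are not shown to pair samples, gave 0, 5, 0, 4, 10, 11, 0, 7, 11, 13 and 8; correlations of the same-numbered deviations were 0.564 in the Stella sort, 0.376 in the Dazl sort and 0.501 for day 16 against 12. Leaving out 1 array gave 0 to 1, 0 to 1, 0 to 2, 1 to 2, 7 to 9, 7 to 10, 0 to 1, 7 to 9, 7 to 13, 7 to 12 and 7 to 12 calls. Without the array labelled E13.5 replicate 1, chosen after seeing the data, the other comparisons had 1, 6, 5, 5, 15, 13, 0 and, for juvenile testis against ES cells, 13. Hox probes detected on the lone remaining array numbered 7 to 10, 5 to 6, 5 to 13, 9 to 13, 4 to 4, 15 to 20, 16 to 17, 10 to 19 and 20 to 23 (Stella-GFP-negative and -positive ES cells, Dazl-GFP-negative and -positive ES cells, day 7, 12, 16, E13.5, juvenile). By the looser flag of positive and significant signal, the counts on both arrays were 22, 18, 23, 22, 13, 27, 30, 30 and 33 in that order.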
